A study of Mus musculus with 17 samples.

Results

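Genes for amino acid transport and amino acid synthesis were examined as 1 group of 42 genes, of which 25 encode transporters and 17 encode enzymes. The group is defined as a list of gene symbols with no threshold on a measured value, though the list was drawn up with earlier results of these data known. All 42 symbols were matched to an Ensembl identifier of the count table, which holds 31091 gene identifiers in all. Their roles order the account that follows: the heterodimeric transporters around CD98, the cationic and sodium-coupled transporters of the plasma membrane, the transporters of lysosomes and endosomes, and then the enzymes that make serine, one-carbon units, proline, glutamine, alanine, aspartate and cysteine.

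Dendritic cells that take up dead cells break the ingested protein down in lysosomes, and amino acids leave the lysosome through dedicated carriers. Plasma membrane transporters bring in further amino acids, many of them by exchange for glutamine, and the supply is read by the kinase complex mTORC1 and by the kinase GCN2. When amino acids are short, GCN2 raises translation of the transcription factor ATF4, which binds many genes for amino acid import, synthesis and tRNA charging.

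Splenic CD11c+ cells came from young adult female C57BL/6JRj mice without a genetic modification, in which a subcutaneous B16 tumor secreting FLT3 ligand had expanded the dendritic cells, and spleens of several mice were pooled per experiment. They were cultured for 6 h with the culture fluid of TC-1 cells, a mouse lung epithelial tumor line transformed with the HPV16 oncogenes E6 and E7 and with H-ras, and GM-CSF was present in every group. The TC-1 cells were either live WT cells, cells of an iBimS line that die by apoptosis through the protein BimS, or cells of an iRIPK3 line that die by necroptosis through oligomerized RIPK3. Cumate, which switches the transgenes on, was given to WT cells too, both engineered lines are single clones, and the fluid was added with its debris. Type 1 and type 2 conventional dendritic cells (cDC1s and cDC2s) were then sorted, which gave 6 groups and 17 samples: 3 samples in every group except cDC2s with RIPK3 medium, which had 2. Nothing in the labels says that samples of a group came from separate animals, so p-values measure the spread between these samples.

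The 17 libraries held between 16095159 and 21645289 counts on genes (median 18986002). The 8 marker genes of cDC1s, such as Clec9a and Xcr1, summed to between 1400 and 1720 counts scaled to the library total (CPM) in cDC1 samples and to between 98.8 and 132 CPM in cDC2 samples. The 6 marker genes of cDC2s, such as Clec10a and Cd209a, summed to at least 285 CPM in cDC2 samples and to at most 4.02 CPM in cDC1 samples, so that both sorts carried the markers of their label. Of 14 detected genes of adherent tumor cells, Krt8, Col1a1, Col1a2, Col3a1 and Ccn1 were at 3 counts or fewer in all groups. The sum of that list was between 52.9 and 56.8 CPM in cDC2s with WT medium and between 137 and 166 CPM with either debris, nearly all of it Thbs1, whose mean was 49.2, 144 and 138 CPM with WT, BimS and RIPK3 medium. In cDC1s the list summed to at most 10.4 CPM in any sample. The 8 macrophage markers summed to between 3.46 and 7.41, 1.59 and 2.63, and 2.93 and 5.12 CPM in cDC1s with WT, BimS and RIPK3 medium, without overlap between WT and BimS. In cDC2s they summed to between 5.08 and 12.8, 5.11 and 5.73, and 6.21 and 9.32 CPM. Of these 8, Mertk was at 3 counts or fewer in both cell types with either debris. The part of tumor cell and macrophage RNA in the differences below was not tested. In bulk samples, fewer cells of a type and less RNA per cell cannot be told apart.

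Most of the 42 genes were well expressed. Their median was 5.27 on the log2 CPM scale in the cDC1 fit and 4.55 in the cDC2 fit, against 1.53 for all tested genes in each. Per length, in length-scaled units (TPM) over the union of exons, the highest members in cDC1s with WT medium were Mthfd2 at 657 ± 14.9 (SD, n = 3), a mitochondrial folate enzyme, and Slc3a2 at 636 ± 9.12, the CD98 heavy chain. With the length of the canonical transcript they were at 623 ± 14.1 and 632 ± 8.94, so these 2 neighbours have no order. Slc15a3, a lysosomal transporter of histidine and peptides, and Got1, the cytosolic aspartate aminotransferase, followed at 449 ± 25.5 and 446 ± 9.45 TPM over exons with a gap smaller than the spread, and with canonical lengths Got1 was the higher of them, at 601 ± 12.7 against 570 ± 32.6. In cDC2s with WT medium Slc15a3 was at 922 ± 73.5 and Slc3a2 at 891 ± 8.85 TPM over exons, a gap smaller than the spread, and both were above Mthfd2 at 539 ± 31.9. With canonical lengths they were at 1150 ± 99.3, 866 ± 6.69 and 500 ± 27.4 TPM, where Slc15a3 was the higher. At the other end, 4 members were at or near 0. The glutamate transporter Slc1a3 had at most 4 counts in any sample, the cationic transporter Slc7a2 and Cbs, the first enzyme of transsulfuration, at most 3, and Slc43a1, a transporter of large neutral amino acids, at most 8, and no fold change is given for them.

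Among the members are textbook targets of ATF4, whose composite site with a C/EBP partner reads TGATGNAA. That site was searched on both strands of RefSeq promoter windows (GRCm38.p6, 250 bases before to 50 after a transcript start), of which 34 members have at least 1. The members without one in the table are Slc1a5, Slc6a6, Slc7a2, Slc7a5, Slc15a3, Slc38a1, Slc43a3 and Cth. It was found for 5 of these 34 (Slc1a4, Slc7a7, Asns, Pycr1 and Got1), and for 4.51% of all 27025 genes with a window (3.97% of 32851 windows). The windows of 3 of them are shown, picked as a transporter and 2 enzymes after their values were seen: Slc1a4, a neutral amino acid transporter, Pycr1, which makes proline, and Asns, which makes asparagine. The capitals mark the 8 matched bases, which begin at position -4 from the start in Slc1a4 (on the opposite strand), -103 in Pycr1 and -23 in Asns.
Slc1a4, chr11:20332664-20332963, minus strand: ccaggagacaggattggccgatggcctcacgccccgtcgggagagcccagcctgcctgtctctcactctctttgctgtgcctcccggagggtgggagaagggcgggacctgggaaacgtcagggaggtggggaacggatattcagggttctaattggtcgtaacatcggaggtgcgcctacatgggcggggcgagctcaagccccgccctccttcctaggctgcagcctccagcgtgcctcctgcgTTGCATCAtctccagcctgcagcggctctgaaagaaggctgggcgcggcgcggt
Pycr1, chr11:120643699-120643998, minus strand: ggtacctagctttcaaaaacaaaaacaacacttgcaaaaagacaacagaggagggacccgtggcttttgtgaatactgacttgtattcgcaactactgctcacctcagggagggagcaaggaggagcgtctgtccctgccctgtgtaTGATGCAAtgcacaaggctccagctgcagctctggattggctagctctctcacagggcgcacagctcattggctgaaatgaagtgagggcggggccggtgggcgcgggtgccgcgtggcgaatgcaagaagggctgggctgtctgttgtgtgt
Asns, chr6:7693160-7693459, minus strand: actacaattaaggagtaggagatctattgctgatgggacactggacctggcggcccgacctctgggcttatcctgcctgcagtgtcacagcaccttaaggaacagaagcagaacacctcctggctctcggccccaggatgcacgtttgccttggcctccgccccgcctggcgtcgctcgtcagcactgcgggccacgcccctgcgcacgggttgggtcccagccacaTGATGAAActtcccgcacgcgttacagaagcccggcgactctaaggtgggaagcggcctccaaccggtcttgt
The E-box CACGTG, which the lysosomal regulators TFEB and TFE3 can bind, was in the windows of 5 members (Slc36a1, Slc38a7, Slc43a1, Aldh18a1 and Cbs) and of 8.09% of all genes. The core TGACNNNGC of the antioxidant response element was in those of 9 members, Slc6a9 among them, and of 14% of all genes, and no match of TGATGNAA overlapped a match of either. A match says only that these letters are in the window.

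The question of each comparison between media was how the response of a dendritic cell to dead cells differs from that to live ones, and whether it differs between apoptosis and necroptosis. A gene is called when its adjusted p is under 0.05 over all genes tested. In cDC1s, BimS against WT medium called 11 of 40 tested members, 7 higher and 4 lower, which is 27.5%, against 13.2% of all genes (7.31% higher and 5.89% lower). RIPK3 against WT medium called 9, 8 of them higher (22.5%, against 16.5% of all genes, 8.35% higher and 8.18% lower). RIPK3 against BimS medium called 6, 5 of them higher (15.0%, against 4.15%, 1.94% higher and 2.21% lower). In cDC2s the numbers were smaller: 4 of 41 members for BimS against WT (3 higher and 1 lower, 9.76%, against 7.01%, 3.80% higher and 3.21% lower; 1 higher and 7 lower when scaled by library size alone), 4, all higher, for RIPK3 against WT (9.76%, against 7.21%, 3.93% higher and 3.28% lower), and 0 for RIPK3 against BimS (against 0.379%), where 7 members had an unadjusted p under 0.05 in edgeR, DESeq2 called 3 and limma called 0. The comparisons within a cell type share groups, so their calls are not independent.

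Well expressed genes are called more often, so the shares were also taken over genes whose log2 CPM averages 3 or more. In cDC1s, 33.3% of such members were called for BimS against WT (25.8% of all such genes), 26.7% for RIPK3 against WT (31.7%) and 20.0% for RIPK3 against BimS (9.01%). In cDC2s, 13.8% were called against WT with either debris, near the 13.2% and 13.6% of all such genes. The median difference of the tested members was 0.01, 0.04 and 0.01 in the 3 cDC1 comparisons and -0.13, 0.07 and 0.15 in the 3 cDC2 comparisons on the log2 scale, against medians of all genes between -0.02 and 0.00. The comparisons are given below gene by gene.

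**Figure D1:**
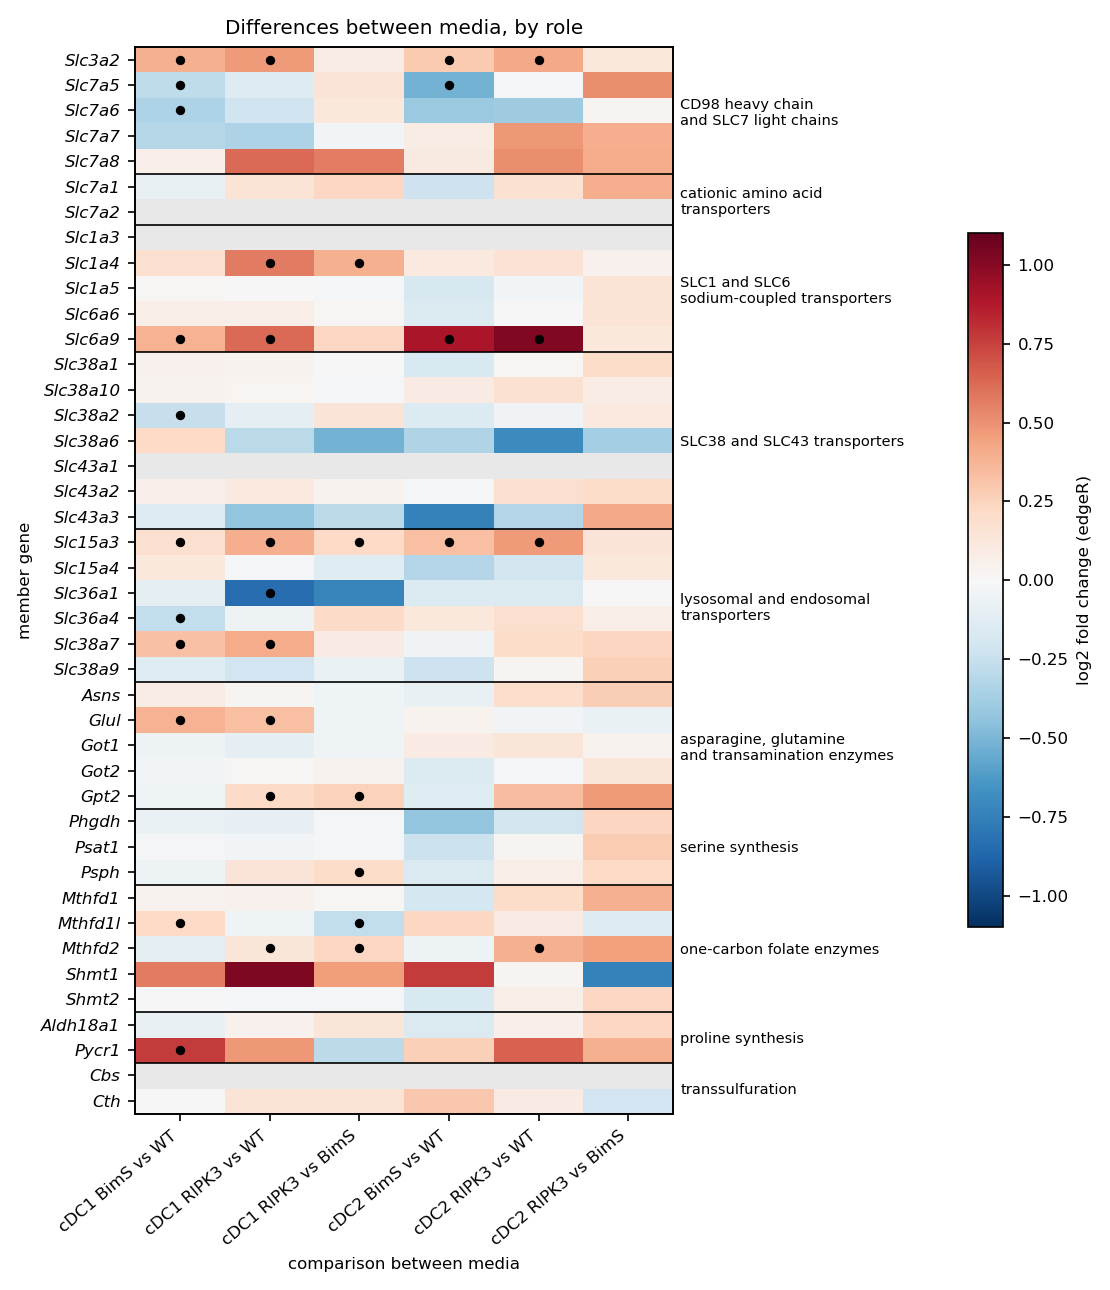
Log2 fold changes (edgeR) of the 42 members between media, with the members in rows grouped by role and the 6 comparisons in columns. Red is higher and blue lower in the first-named medium, dots mark an adjusted p under 0.05, and gray rows are the 4 members at or near 0 counts. Slc3a2, Slc6a9 and Slc15a3 carry dots against WT medium with both debris types in both cell types.

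Same-numbered samples of a cell type deviated together, so the replicate number was also fitted as a block. The block left the cDC1 count for BimS against WT at 11, while the share of all genes called rose to 17.9%, and raised the others: to 16 members for RIPK3 against WT in cDC1s (12 higher, against 21.0% of all genes), 13 for RIPK3 against BimS in cDC1s (10 higher, 8.82%), 19 for BimS against WT in cDC2s (4 higher and 15 lower, 21.3%), 9 for RIPK3 against WT in cDC2s (7 higher, 21.4%) and 12, all higher, for RIPK3 against BimS in cDC2s (14.3%). No member called without the block was lost with it. In cDC2s the block leaves few residual degrees of freedom, and it was not run on simulated data. The size of its p-values there is therefore not read as strength of evidence. In cDC2s with the block, Phgdh, Psat1, Slc7a1, Slc38a1 and Slc1a5 were among the 15 lower with BimS debris, and Asns, Shmt2, Psat1, Slc7a1 and Slc7a5 among the 12 higher with RIPK3 than with BimS debris.

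CD98 is a heterodimer of the heavy chain Slc3a2 and 1 of several light chains that do the transport. Slc3a2 (chromosome 19, 8684245 to 8701108, GRCm39) rose with both kinds of debris in both cell types. In cDC1s it was at 579, 568 and 579 CPM with WT medium, at 759, 737 and 759 CPM with BimS debris and at 769, 807 and 816 CPM with RIPK3 debris. Neither debris group overlapped the WT group, and the log2 fold changes were 0.39 ± 0.0439 (SE, adjusted p = 1.52e-08) and 0.47 ± 0.0439 (adjusted p = 1.19e-10). The 2 debris groups did not overlap each other either, but their difference of 0.08 was not called. Slc3a2 shares 743 exon bases with Snhg1 on the opposite strand, which averaged 607.9 counts against 15402.6. In cDC2s the values were 782, 828 and 864 CPM with WT medium, 964, 1010 and 1060 CPM with BimS debris, and 1090 and 1130 CPM with RIPK3 debris. The log2 fold changes there were 0.29 ± 0.0744 (adjusted p = 0.0184) and 0.42 ± 0.0824 (adjusted p = 0.00231), again with no overlap with WT. The cDC2 calls were lost without certain samples: BimS against WT without WT sample 2, BimS sample 2 or BimS sample 3 (adjusted p up to 0.0848), and RIPK3 against WT without RIPK3 sample 2 (adjusted p = 0.0566). Both were also lost by limma on log2 of count plus 1 (0.22 and 0.24), and the first with library size alone (0.20).

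Slc7a5 (chromosome 8, 122607884 to 122634433), or LAT1, is the light chain that exchanges glutamine for leucine and other large neutral amino acids, and it went the opposite way to its heavy chain with BimS debris. The cDC1 values were 326, 305 and 344 CPM with WT medium, 252, 274 and 278 CPM with BimS debris and 285, 305 and 296 CPM with RIPK3 debris. With BimS debris it changed by -0.28 ± 0.0508 on the log2 scale (adjusted p = 8.12e-05, not called with all 17 samples in 1 fit) with no overlap, whereas with RIPK3 debris the difference was -0.14 and was called only with the block (adjusted p = 0.00517). In cDC2s it was at 223, 264 and 235 CPM with WT medium, 141, 197 and 166 CPM with BimS debris, and 210 and 270 CPM with RIPK3 debris. The BimS group lay below both other groups, and RIPK3 and WT overlapped. The cDC2 fold change for BimS was -0.52 ± 0.125 (adjusted p = 0.0218), a call lost without WT sample 2, WT sample 3, BimS sample 1 or BimS sample 3 (adjusted p up to 0.13). RIPK3 against BimS debris gave 0.51 ± 0.138 in cDC2s, which was not called (adjusted p = 0.201) without the block and was called with it (adjusted p = 6.27e-20).

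**Figure D2:**
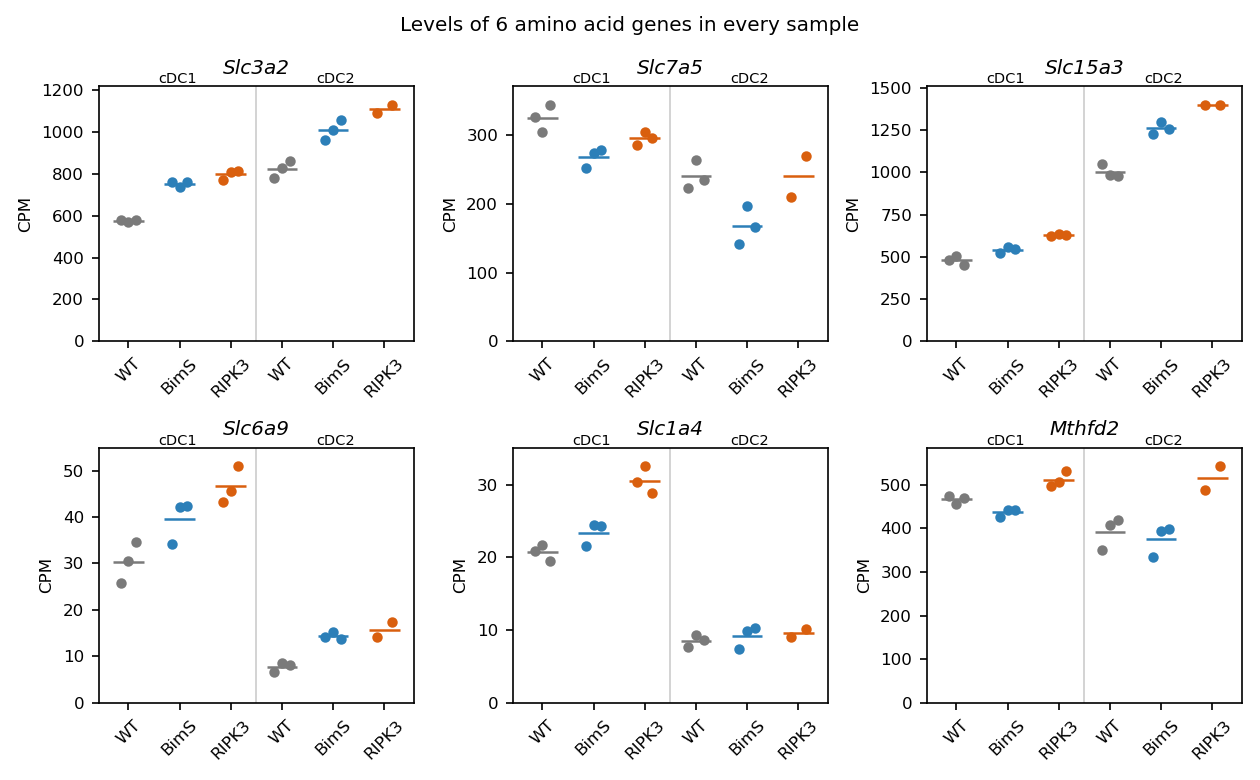
Levels in CPM (linear axes from 0) of Slc3a2, Slc7a5, Slc15a3, Slc6a9, Slc1a4 and Mthfd2 in every sample of cDC1s (left of the gray line) and cDC2s (right), with points for samples and bars for group means. Slc3a2 and Slc15a3 lie above the WT groups in every debris sample, Slc7a5 lies lowest with BimS debris, and Slc1a4 in cDC1s lies highest with RIPK3 debris.

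The other light chains were much lower. Slc7a6, which exchanges cationic for neutral amino acids, was at 8.77, 9.05 and 9.34 CPM in cDC1s with WT medium and at 6.98, 7.29 and 7.22 CPM with BimS debris, a change of -0.34 ± 0.114 (adjusted p = 0.0421). That call was lost without any 1 of the 6 samples compared. Slc7a6 was not called against WT in the other debris groups without the block, though none overlapped WT. In cDC1s with RIPK3 debris it was at 7.28, 8.08 and 8.05 CPM. In cDC2s it was at 9.39, 8.66 and 9.28 CPM with WT medium and 6.33, 7.37 and 6.8 CPM with BimS debris. With RIPK3 debris it was there at 7.37 and 6.68 CPM. Slc7a7, of the same exchange type, was at 4.83, 4.78 and 5.12 CPM in cDC1s with WT medium, at 3.92, 3.83 and 4.12 CPM with BimS debris and at 4, 4.12 and 3.51 CPM with RIPK3 debris, with no overlap with WT and no call. Its exons share bases with Oxa1l on the opposite strand, which averaged 818.5 counts against 58.1 for Slc7a7. Slc7a8, or LAT2, was at 2.14, 1.58 and 1.35 CPM with WT medium, at 1.68, 1.96 and 1.6 CPM with BimS debris and at 1.67, 3.66 and 2.42 CPM with RIPK3 debris in cDC1s, where the groups overlapped. There its rise with RIPK3 against WT medium was called only with the block.

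Of the plasma membrane transporters that run on sodium, Slc6a9 rose in both cell types and Slc1a4 rose in cDC1s with RIPK3 debris. Slc6a9 (chromosome 4, 117691703 to 117732395), or GLYT1, imports glycine. In cDC1s it was at 25.7, 30.6 and 34.7 CPM with WT medium, 34.2, 42.2 and 42.3 CPM with BimS debris and 43.2, 45.7 and 50.9 CPM with RIPK3 debris. The RIPK3 group lay above the WT group and rose by 0.62 ± 0.113 on the log2 scale (adjusted p = 0.00191). The BimS group overlapped it by 1 sample and rose by 0.38 ± 0.113 (adjusted p = 0.0452), a call lost without any 1 of 7 of the 9 cDC1 samples (adjusted p up to 0.161). In cDC2s Slc6a9 started lower, at 6.67, 8.55 and 8.04 CPM with WT medium, and was at 14.2, 15.2 and 13.8 CPM with BimS debris and at 14.2 and 17.3 CPM with RIPK3 debris. Both debris groups were clear of the WT group there, with rises of 0.90 ± 0.132 (adjusted p = 0.000134) and 1.02 ± 0.144 (adjusted p = 7.41e-05), and both calls held without any 1 sample. The rise with BimS debris differed between the cell types by -0.51 ± 0.167 (cDC1 minus cDC2), which was not called (adjusted p = 0.211) without the block and was called with it (adjusted p = 0.0153).

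Slc1a4 (chromosome 11, 20252180 to 20282774), or ASCT1, exchanges alanine, serine and cysteine. In cDC1s it rose with RIPK3 debris: it was at 20.8, 21.7 and 19.5 CPM with WT medium, 21.5, 24.4 and 24.3 CPM with BimS debris and 30.3, 32.5 and 28.8 CPM with RIPK3 debris. The RIPK3 group lay above both other groups, which overlapped each other. RIPK3 against WT gave 0.57 ± 0.0773 (adjusted p = 5.07e-07) and RIPK3 against BimS gave 0.39 ± 0.0765 (adjusted p = 0.00146). Both calls held without any 1 sample, and the second was lost by limma on log2 of count plus 1 (0.30). In cDC2s it was at 7.64, 9.29 and 8.58 CPM with WT medium, 7.42, 9.86 and 10.3 CPM with BimS debris, and 9.05 and 10.1 CPM with RIPK3 debris, with overlapping groups and no call. The RIPK3 response differed between the cell types by 0.39 ± 0.166, which was not called (adjusted p = 0.446).

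The 3 further transporters of the plasma membrane were not called between media without the block. Slc1a5, or ASCT2, the main exchanger for glutamine, had group means between 95.2 and 96.0 CPM in cDC1s and between 47.6 and 53.8 CPM in cDC2s. Slc6a6, the taurine transporter, had group means between 405 and 427 CPM in cDC1s and between 118 and 132 CPM in cDC2s. Slc7a1, the cationic transporter CAT1, reached 116, 144 and 116 CPM in cDC1s with RIPK3 debris against 109, 120 and 109 CPM with WT medium, and was called there only with the block (adjusted p = 0.0155).

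The SLC38 carriers bring in glutamine and other neutral amino acids. Slc38a2, or SNAT2, which is known to rise when amino acids are short, was at 281, 307 and 300 CPM in cDC1s with WT medium, 229, 268 and 252 CPM with BimS debris and 264, 301 and 263 CPM with RIPK3 debris. With BimS debris it changed by -0.25 ± 0.0577 (adjusted p = 0.00313), with no overlap with WT, and the call held without any 1 sample and was lost by limma on log2 of count plus 1 (-0.28). In cDC2s Slc38a2 was at 375, 372 and 340 CPM with WT medium and 339, 328 and 316 CPM with BimS debris. With RIPK3 debris it was there at 345 and 364 CPM, and neither debris type was called against WT without the block. None of Slc38a1, Slc38a6, Slc38a10, Slc43a2 and Slc43a3 was called between media without the block, and Slc38a6 shares bases with Trmt5 on the opposite strand at similar counts.

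Among the carriers of lysosomes and endosomes, Slc15a3 rose in both cell types. In cDC1s Slc38a7 rose, Slc36a1 fell with RIPK3 debris and Slc36a4 fell with BimS debris. Slc15a3 (chromosome 19, 10817091 to 10836726), or PHT2, moves histidine and small peptides out of the lysosome. In cDC1s it was at 482, 507 and 449 CPM with WT medium, 522, 558 and 548 CPM with BimS debris and 623, 638 and 632 CPM with RIPK3 debris. The 3 groups were in that order with no overlap, and all differences were called: 0.18 ± 0.0475 for BimS against WT (adjusted p = 0.00728), 0.40 ± 0.0475 for RIPK3 against WT (adjusted p = 3.57e-08) and 0.22 ± 0.0474 for RIPK3 against BimS (adjusted p = 0.00399). The first of these was lost without WT sample 3 or BimS sample 2 (adjusted p up to 0.123) and with library size alone (0.11), and the last by limma on log2 of count plus 1 (0.13) and with all 17 samples in 1 fit. In cDC2s it was at 1050, 982 and 981 CPM with WT medium, 1230, 1300 and 1260 CPM with BimS debris, and 1400 in both samples with RIPK3 debris. The groups again did not overlap, with rises against WT of 0.33 ± 0.0725 (adjusted p = 0.00663), lost without WT sample 2 (adjusted p = 0.059), and 0.47 ± 0.0803 (adjusted p = 0.000613). Both were lost by limma on log2 of count plus 1 (0.26 and 0.29), and the first with library size alone (0.23). RIPK3 against BimS debris in cDC2s gave 0.14, which was called only with the block (adjusted p = 0.0379). Slc15a3 shares exon bases with Tmem132a on the opposite strand, which averaged 257.8 counts against 15682.5.

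Slc38a7, or SNAT7, exports glutamine from lysosomes. It rose in cDC1s with both debris types, from 30.5, 33.8 and 32.2 CPM with WT medium to 37.6, 42.8 and 40.2 CPM with BimS debris and 41.2, 44.2 and 42.7 CPM with RIPK3 debris. The debris groups lay above the WT group, by 0.32 ± 0.0671 (adjusted p = 0.00061) and 0.41 ± 0.0671 (adjusted p = 1.49e-05), and both calls were lost by limma on log2 of count plus 1 (0.28 and 0.29). Its cDC2 values ranged from 15.8 to 23.4 CPM over the 3 media with overlapping groups for both debris types against WT, and none was called.

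Slc36a1, or PAT1, a proton-coupled exporter of small neutral amino acids, was at 2.24, 2.54 and 3.19 CPM in cDC1s with WT medium, at 2.5, 1.82 and 3.14 CPM with BimS debris and at 1.72, 1.51 and 1.21 CPM with RIPK3 debris. It fell with RIPK3 debris by -0.84 ± 0.236 against WT (adjusted p = 0.00938), a call lost without WT sample 3 (adjusted p = 0.0908). Slc36a4, or PAT4, fell in cDC1s with BimS debris by -0.27 ± 0.0934 (adjusted p = 0.0469) from 22.1, 21.3 and 20.5 to 16.2, 20.1 and 16.3 CPM. That call was lost without WT sample 1, 2 or 3 or BimS sample 1 or 3. With RIPK3 debris Slc36a4 was there at 19.7, 23.3 and 18.1 CPM, overlapping WT. In cDC2s neither gene was called against WT without the block. Slc36a4 was there at 13.6, 13.7 and 11.7 CPM with WT medium and 14.2, 15.7 and 12.3 CPM with BimS debris. Slc38a9, the arginine sensor of the lysosomal surface, and Slc15a4, which Toll-like receptor signaling in endosomes requires, were not called without the block.

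Of the enzymes, BimS against WT medium called 3 of 17 in cDC1s and RIPK3 against WT called 3, all higher, and in cDC2s 0 and 1 of 16 were called. Of all genes, 7.31% and 8.35% were called higher in cDC1s and 7.01% and 7.21% in either direction in cDC2s. RIPK3 against BimS medium called 3 enzymes higher and 1 lower of 17 in cDC1s, where 4.15% of all genes were called, and 0 of 16 in cDC2s. Glul, glutamine synthetase, rose in cDC1s with both debris types, from 17, 16.4 and 16.3 CPM with WT medium to 21.1, 22.8 and 20.8 CPM with BimS debris and 21.8, 20.6 and 20.2 CPM with RIPK3 debris. There was no overlap with WT, and the rises were 0.38 ± 0.0804 (adjusted p = 0.000713) and 0.33 ± 0.0811 (adjusted p = 0.00267). Both calls were lost by limma on log2 of count plus 1, with differences of 0.34 and 0.21. In cDC2s Glul was between 43.7 and 47.8 CPM in all 8 samples. The rise with debris differed between the cell types by 0.34 ± 0.103 for BimS (adjusted p = 0.148) and 0.35 ± 0.109 for RIPK3 (adjusted p = 0.149), which were not called.

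Pycr1, which makes the last step to proline in mitochondria, rose with BimS debris in cDC1s. It was at 2.69, 2.54 and 2.07 CPM with WT medium, 4.23, 3.93 and 4.23 CPM with BimS debris and 3.14, 3.81 and 3.16 CPM with RIPK3 debris. The 3 groups did not overlap, and BimS against WT gave 0.77 ± 0.175 (adjusted p = 0.00174), which held without any 1 sample. In cDC2s it was at 0.872, 0.918 and 1.35 CPM with WT medium, at 1.03, 1.73 and 0.954 CPM with BimS debris, and at 1.29 and 1.99 CPM with RIPK3 debris, with overlap and no call. Aldh18a1, which makes the first step, was not called in either cell type without the block.

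Mthfd2 and Gpt2 were called higher with RIPK3 than with BimS debris in cDC1s, though for neither was the call kept by limma on log2 of count plus 1 or with all 17 samples in 1 fit. Mthfd2, the folate dehydrogenase and cyclohydrolase of mitochondria, was at 474, 456 and 469 CPM in cDC1s with WT medium, 427, 441 and 441 CPM with BimS debris and 496, 507 and 531 CPM with RIPK3 debris. The RIPK3 group lay above both others, by 0.23 ± 0.0451 over BimS (adjusted p = 0.00133) and by 0.13 ± 0.0451 over WT (adjusted p = 0.0368), the second of which was lost without any 1 of 7 samples. In cDC2s it was at 350, 407 and 418 CPM with WT medium, 335, 394 and 398 CPM with BimS debris, and 489 and 542 CPM with RIPK3 debris. The RIPK3 samples were again above the rest. They differed from WT by 0.39 ± 0.0995 (adjusted p = 0.0195), which was lost without WT sample 1 or 2 or either RIPK3 sample (adjusted p up to 0.287) and with library size alone (0.28), and from BimS by 0.45 ± 0.0995 (adjusted p = 0.0541, and 6.69e-23 with the block).

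Gpt2, the mitochondrial alanine aminotransferase, was at 148, 144 and 155 CPM in cDC1s with WT medium, 144, 145 and 143 CPM with BimS debris and 171, 177 and 167 CPM with RIPK3 debris. The RIPK3 group did not overlap the others and was higher by 0.21 ± 0.0489 than WT (adjusted p = 0.00165) and by 0.25 ± 0.049 than BimS (adjusted p = 0.00104). The call against WT was lost under those alternatives too, and with library size alone, where the difference was 0.13. In cDC2s it was at 76.4, 83.7 and 76 CPM with WT medium, 64.8, 81 and 69.9 CPM with BimS debris, and 92.6 and 108 CPM with RIPK3 debris. There RIPK3 against BimS gave 0.47 ± 0.107, which was not called (adjusted p = 0.0623) without the block and was called with it (adjusted p = 6.43e-12).

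Mthfd1l, which makes formate in mitochondria, was higher with BimS debris than with WT medium in cDC1s, by 0.22 ± 0.0723 (adjusted p = 0.0349), and lower with RIPK3 than with BimS debris by -0.27 ± 0.073 (adjusted p = 0.0233). Its values were 35.5, 39.3 and 35.7 CPM with WT medium, 39.4, 45 and 44.2 CPM with BimS debris and 31.5, 38.4 and 36.6 CPM with RIPK3 debris, and both calls were lost without some single samples (adjusted p up to 0.186). The serine synthesis enzymes Phgdh and Psat1, the serine hydroxymethyltransferases Shmt1 and Shmt2, the cytosolic folate enzyme Mthfd1, and Asns, Got1, Got2 and Cth had no call between media without the block. Shmt1 averaged 11.3 counts and shares bases with Smcr8 on the opposite strand, at 2578.6 counts. For Asns, a known ATF4 target, the cDC1 values were 69.3, 68.2 and 72.9 CPM with WT medium, 76.1, 71.7 and 74.2 CPM with BimS debris and 66.9, 69.5 and 78.2 CPM with RIPK3 debris, and all groups overlapped. Psph, the last enzyme of serine synthesis, was at 57.8, 60.8 and 58.9 CPM with WT medium, 57.3, 57.4 and 56 CPM with BimS debris and 61.9, 64.5 and 69.4 CPM with RIPK3 debris in cDC1s. RIPK3 exceeded BimS by 0.20 ± 0.0579 (adjusted p = 0.0453), a call lost without any 1 of 8 samples, and Psph shares bases with Cct6a on the opposite strand, at 3066.9 against 768.1 counts.

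The larger differences were between the cell types. In WT medium 30 of 42 members were called between cDC1s and cDC2s (71.4%, against 46.2% of all genes), 23 higher in cDC1s (22.5% of all genes) and 7 higher in cDC2s (23.7%). Of the 30 members whose log2 CPM averages 3 or more, 24 were called, against 67.9% of all such genes. The median member was 0.57 higher in cDC1s on the log2 scale, where the median gene was at 0.01. Of the enzymes, 13 of 17 were called higher in cDC1s, Cbs at no more than 3 counts among them, and 1, Glul, was higher in cDC2s, with a median of 0.86. The transporters were divided, 10 of 25 higher in cDC1s and 6 in cDC2s, with a median of 0.16.

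**Figure D3:**
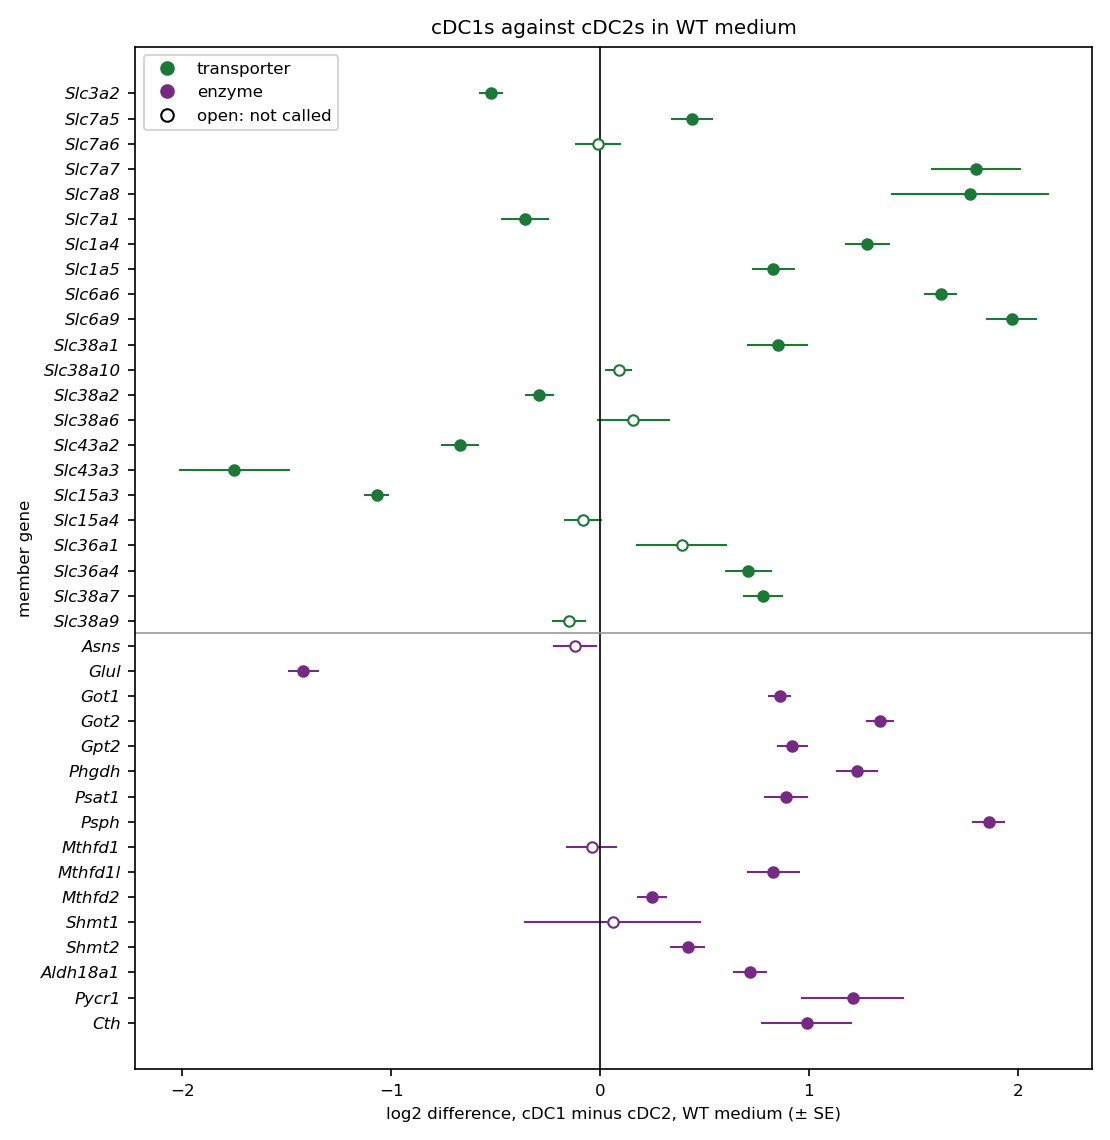
Log2 difference between cDC1s and cDC2s in WT medium (positive is higher in cDC1s, edgeR, bars are SE) for 22 transporters and 16 enzymes, without the 4 members at or near 0 counts. Filled points have an adjusted p under 0.05. Most filled enzyme points lie to the right of 0, with Glul as the exception, and the transporters lie on both sides.

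Leaving out Cbs, Psph was the enzyme furthest to the side of cDC1s. It was at 57.8, 60.8 and 58.9 CPM in cDC1s and 15.6, 15.8 and 17.3 CPM in cDC2s, a difference of 1.86 ± 0.0774 (adjusted p = 3.81e-18). Phgdh and Psat1, the other 2 enzymes of the serine branch, were also higher in cDC1s, by 1.23 ± 0.0997 and 0.89 ± 0.105. Got2, the mitochondrial aspartate aminotransferase, was higher by 1.34 ± 0.0686, Pycr1 by 1.21 ± 0.247, Cth, which makes cysteine, by 0.99 ± 0.218, Gpt2 by 0.92 ± 0.0742 and Got1 by 0.86 ± 0.0554. Of the folate and proline enzymes, Mthfd1l was higher by 0.83, Aldh18a1 by 0.72, Shmt2 by 0.42 and Mthfd2 by 0.25, and Mthfd1 and Shmt1 were not called. Glul went the other way, at 17, 16.4 and 16.3 CPM in cDC1s and 44.9, 43.8 and 44.3 CPM in cDC2s, a difference of -1.42 ± 0.0736 (adjusted p = 6.69e-16). Asns was at 64.6, 81.6 and 82.7 CPM in cDC2s and overlapped the cDC1 values, and its difference of -0.12 ± 0.107 was not called (adjusted p = 0.39).

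Slc6a9 was the transporter with the largest difference toward cDC1s, 1.97 ± 0.122 (adjusted p = 5.94e-14), from the WT medium values given above. Slc7a7 was higher by 1.80 ± 0.216 (adjusted p = 4.49e-08), at 0.77, 1.72 and 1.78 CPM in cDC2s, and Slc7a8 by 1.77 ± 0.377 (adjusted p = 0.000251), at 0.359, 0.574 and 0.54 CPM in cDC2s. Slc6a6 at 385, 419 and 412 CPM in cDC1s and 138, 138 and 118 CPM in cDC2s differed by 1.63 ± 0.0799 (adjusted p = 1.92e-16). Slc1a4 followed at 1.28 ± 0.109, Slc38a1 at 0.85 ± 0.147, Slc1a5 at 0.83 ± 0.101, Slc38a7 at 0.78 ± 0.0941 and Slc36a4 at 0.71 ± 0.112.

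Toward cDC2s, Slc43a3, an equilibrative carrier of purine nucleobases, was at 1.9, 3.5 and 3.35 CPM against 0.648, 1.17 and 0.763 CPM in cDC1s, a difference of -1.75 ± 0.267 (adjusted p = 2.48e-06). Slc15a3 was higher in cDC2s, by -1.07 ± 0.0586 as cDC1 minus cDC2 (adjusted p = 2.48e-15), followed by Slc43a2, a carrier of large neutral amino acids, at -0.67 ± 0.0891. Slc38a2 was at -0.29, a call lost by limma on log2 of count plus 1 (-0.13), and Slc7a1 at -0.36 (adjusted p = 0.0167), and the call of Slc7a1 was lost without cDC1 WT sample 1 or 3 or cDC2 WT sample 1 or 2. The CD98 chains split: Slc3a2 was higher in cDC2s (-0.52 ± 0.0572, adjusted p = 8.4e-09) and Slc7a5 in cDC1s (0.44 ± 0.101, adjusted p = 0.00117). Cbs was also among the calls, with 3, 0 and 3 counts in cDC1s and 0 in each cDC2 sample, which is at or under the floor of 3 counts per library and is not read as a difference.

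Whether the response to debris differed between the cell types was tested as an interaction. None of the 42 members was called in edgeR for BimS against WT (0.859% of all genes), RIPK3 against WT (1.14%) or RIPK3 against BimS (0.0314%), with 8, 6 and 6 members at an unadjusted p under 0.05. DESeq2 called 0, 1 and 0 and limma none, and with the block 2 members were called for BimS against WT (2.32% of all genes) and 1 for RIPK3 against WT (2.35%). A call in 1 cell type alone is therefore not shown to be particular to it.

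Among the genes that respond to amino acid supply, 18 regulators of the starvation response were tested, and no test of the list as a whole was made. BimS against WT called 3 higher and 9 lower in cDC1s (median -0.14), where 7.31% of all genes were higher and 5.89% lower, and 3 higher and 6 lower in cDC2s (median -0.28), where the shares of all genes were 3.80% and 3.21%. RIPK3 against BimS called 10 higher and 1 lower in cDC1s (median 0.25), where 1.94% of all genes were higher and 2.21% lower, and 3 higher and 0 lower in cDC2s (median 0.34), where the block gave 12 higher and 1 lower (0.379% of all genes without the block and 14.3% with it). RIPK3 against WT called 6 higher and 4 lower in cDC1s (median 0.02, with 8.35% and 8.18% of all genes) and 4 higher and 1 lower in cDC2s (median 0.12, with 3.93% and 3.28%). The medians of all genes lay between -0.02 and 0.00 throughout.

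**Figure D4:**
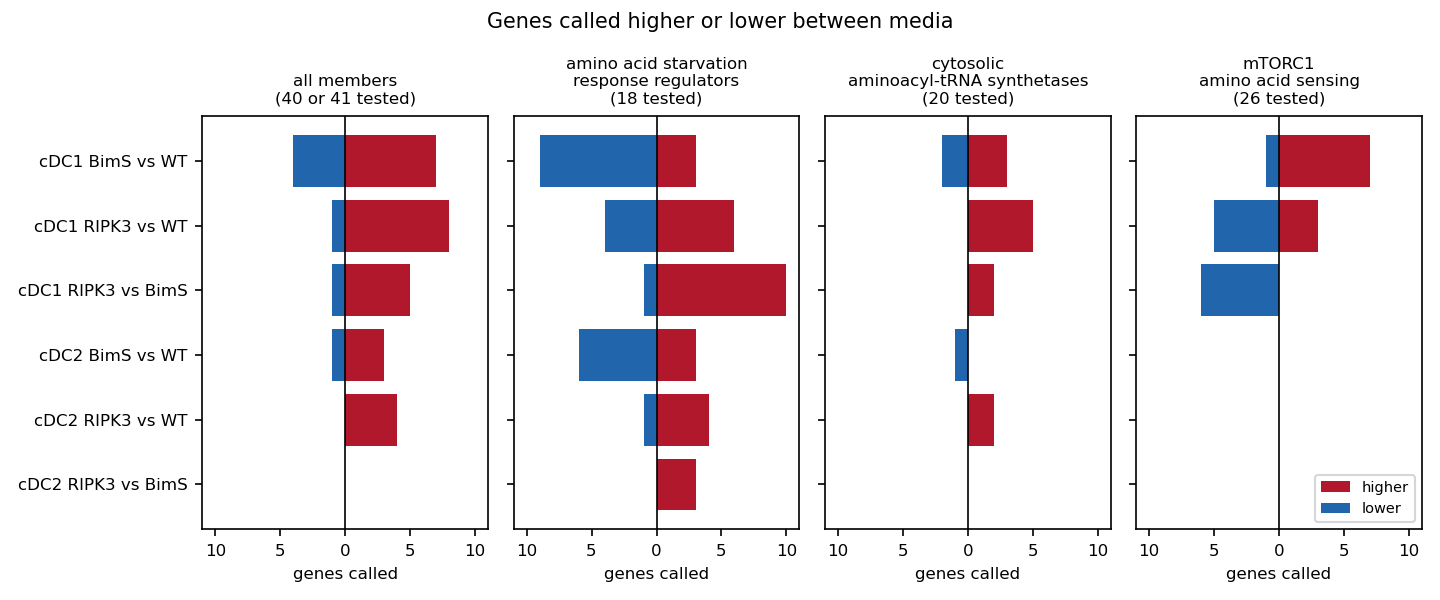
Number of genes called higher (red, to the right) and lower (blue, to the left) in each comparison between media, for the 42 members and for 3 lists of genes that respond to or read amino acid supply. The starvation response regulators show 10 higher and 1 lower for RIPK3 against BimS in cDC1s, and the mTORC1 list 6 lower and 0 higher.

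Cebpb, a transcription factor that pairs with ATF4, was at 27.1 ± 3.36 (SD), 69.4 ± 14.3 and 90.9 ± 4.77 CPM in cDC1s with WT, BimS and RIPK3 medium and at 33.4 ± 6.14, 93.3 ± 27.3 and 120 ± 4.55 CPM in cDC2s, with rises against WT of 1.36, 1.75, 1.48 and 1.84 in that order. Atf3, induced downstream of ATF4, was at 72.4 ± 1.78, 107 ± 0.471 and 161 ± 11.2 CPM in cDC1s, all differences called, and at 25.8 ± 1.63, 21.2 ± 3.9 and 36.2 ± 3.91 CPM in cDC2s. Ddit4, an inhibitor of mTORC1, was at 8.65 ± 0.974, 8.21 ± 0.65 and 14.5 ± 0.864 CPM in cDC1s and at 41.8 ± 6.43, 65.7 ± 4.69 and 105 ± 7.4 CPM in cDC2s. Ppp1r15a, the phosphatase subunit that ends the response, rose against WT in all 4 debris comparisons, by between 0.20 and 0.59. Chac1, which degrades glutathione, fell with BimS debris against WT by -0.52 in cDC1s and -0.67 in cDC2s, and exceeded BimS with RIPK3 debris by 0.49 and 0.81. Trib3, an inhibitor of ATF4, fell by 0.49 with BimS debris in cDC1s and was 0.61 higher with RIPK3 than BimS debris. Nupr1, a stress-induced nuclear protein, fell with BimS debris by -0.67 in cDC1s and -0.74 in cDC2s, and Eif2ak3, the kinase PERK, fell with RIPK3 debris in cDC1s by -0.19. Eif2ak2, the kinase PKR, which is itself induced by interferon, fell in all 4 comparisons with WT, by between -0.75 and -1.27. Atf4 mRNA itself was at 677 ± 3.88, 598 ± 12.9 and 683 ± 41.8 CPM in cDC1s, and the protein was not measured.

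Of 20 cytosolic aminoacyl-tRNA synthetases, which load tRNAs with amino acids, 5 rose and 0 fell in cDC1s with RIPK3 against WT medium and 2 rose in cDC2s. BimS against WT called 3 higher and 2 lower in cDC1s and 1 lower in cDC2s. Of all genes, 8.35% were called higher in cDC1s and 3.93% in cDC2s with RIPK3 debris, and 13.2% and 7.01% in either direction with BimS debris. Nars1, for asparagine, rose by 0.44 in cDC1s and 0.36 in cDC2s with RIPK3 debris and by 0.25 in cDC1s with BimS debris, and Eprs1, for glutamate and proline, by 0.25 and 0.41 with RIPK3 debris. With BimS debris in cDC1s, Lars1 rose by 0.26 and Rars1 by 0.16, while Kars1 fell by 0.19 and Qars1 by 0.18, and Vars1 fell by 0.54 in cDC2s. RIPK3 exceeded BimS debris in cDC1s for Nars1 (0.20) and Gars1 (0.18). In cDC2s RIPK3 against BimS called none without the block and 11, all higher, with it (14.3% of all genes with it). Between the cell types, 13 were higher and 1 lower in cDC1s, where 22.5% and 23.7% of all genes were.

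Of 26 tested genes of amino acid sensing by mTORC1, 7 rose and 1 fell in cDC1s with BimS against WT medium, 3 rose and 5 fell with RIPK3 against WT, and 6 fell with RIPK3 against BimS. The shares of all genes were 7.31% higher and 5.89% lower, 8.35% and 8.18%, and 2.21% lower. Rragd, a Rag GTPase that recruits mTORC1 to lysosomes, was at 1.29 ± 0.373, 2.59 ± 0.187 and 1.31 ± 0.156 CPM. Flcn, which activates that GTPase, was at 19.1 ± 1.59, 28.6 ± 1.18 and 20.1 ± 0.794 CPM, its partner Fnip2 at 70.8 ± 4.09, 96.7 ± 8.81 and 65.4 ± 1.89 CPM, and Fnip1 at 43.5 ± 0.889, 55.0 ± 1.73 and 34.9 ± 3.84 CPM with WT, BimS and RIPK3 medium. These 4 were highest with BimS debris in cDC1s. Castor2, the paralog of the arginine sensor Castor1, fell by -0.42 with BimS and -0.31 with RIPK3 debris, and Mlst8, a subunit of mTORC1, by -0.33 with RIPK3 debris. Rheb, Lamtor3 and Akt1s1 each rose by 0.25 with RIPK3 debris. In cDC2s no gene of this list was called between media in edgeR without the block. With the block, 1 was higher and 6 lower for BimS against WT, 1 higher and 5 lower for RIPK3 against WT, and 4 higher and 3 lower for RIPK3 against BimS, where 21.3%, 21.4% and 14.3% of all genes were called.

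Transporters and enzymes outside the 42 were taken from 3 further lists. Of other transporters, most of them of the plasma membrane, 14 or 16 of 37 could be tested, and Slc7a11, the cystine importer that pairs with Slc3a2, rose in all 4 comparisons with WT. It went from 363 ± 26.5 to 954 ± 50.5 and 1030 ± 101 CPM in cDC1s and from 886 ± 151 to 1500 ± 146 and 1350 ± 4.03 CPM in cDC2s, with log2 fold changes of 1.39 in cDC1s and 0.76 in cDC2s for BimS debris. Slc66a1, a lysosomal exporter of cationic amino acids on the same list, fell in cDC1s with RIPK3 debris by -0.42 against WT and -0.49 against BimS. Of 12 mitochondrial carriers, the aspartate-glutamate carrier Slc25a12 rose in all 4 comparisons with WT, by between 0.33 and 0.48. Sfxn2, of the sideroflexin family of serine carriers, fell in cDC2s by -0.93 and -0.97 and the ornithine carrier Slc25a15 by -0.83 and -1.05 with BimS and RIPK3 debris. The glutamate carrier Slc25a22 fell in cDC1s by -0.36 and -0.34, and in cDC2s with BimS debris by -0.57. Sfxn2 fell by -0.41, Sfxn3 by -0.27 and Slc25a38 rose by 0.17 in cDC1s with RIPK3 debris.

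Of 39 other enzymes tested in cDC1s and 42 in cDC2s, between 1 and 9 were called per comparison: 7 of 39 for BimS and 9 of 39 for RIPK3 against WT in cDC1s, where 13.2% and 16.5% of all genes were, and 4 and 3 of 42 in cDC2s, where 7.01% and 7.21% were. Ass1, which makes argininosuccinate on the way to arginine, rose in all 4 comparisons with WT, by 0.52 and 0.64 in cDC1s and 0.68 and 0.62 in cDC2s. Mthfd2l, the paralog of Mthfd2, rose from low levels in 3 of them, from 0.731 ± 0.205 to 1.8 ± 0.238 CPM in cDC1s with BimS debris. Kynu, which acts in tryptophan breakdown, fell in cDC1s with RIPK3 debris by -0.79 and in cDC2s by -0.63 and -1.29, and was lower with RIPK3 than BimS debris in both cell types (-0.47 and -0.67). Asrgl1, an asparaginase, fell with BimS debris by -0.82 in cDC1s and -0.67 in cDC2s, by -0.38 in cDC1s with RIPK3 debris, and was 0.44 higher in cDC1s with RIPK3 than BimS debris. Glud1, glutamate dehydrogenase, fell in cDC1s by -0.38 with BimS and -0.32 with RIPK3 debris, and by -0.40 in cDC2s with RIPK3 debris. In cDC1s, Bcat2 rose by 0.23 and Bckdha fell by -0.19 with BimS debris, and Aldh1l2 was -0.52 lower with RIPK3 than BimS debris.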

How the data were processed

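RNA was measured by paired-end sequencing of poly-A libraries from 17 samples of sorted splenic cDC1s and cDC2s. The authors deposited a table of raw counts per Ensembl gene, which is the table used here, and a normalized table that was not used. The submitters' processing notes name STAR 2.7.10a and GRCm39, and whether counting used strand is not given in the sources used here. A total of 148 lines without a gene identifier, with 0.0258% to 0.0366% of each library, were left out.

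Genes with a count above 0 in at least 50% of the samples compared were tested with edgeR 4.0.16 (quasi-likelihood, TMM scaling, R 4.3.3) within a cell type for media, and over all samples for cell types and interactions. P-values were adjusted over all genes tested (Benjamini-Hochberg, threshold 0.05). The SE of a fold change was derived from the test, as its absolute log2 value divided by the square root of the F statistic. Scripts were tested on simulated data, where the share of false calls between media lay above the nominal threshold and smaller changes were missed more often in cDC2s than in cDC1s. Members were matched by symbol, and promoter windows are RefSeq's. The members, gene lists and promoter search were chosen with earlier results of these data known. Alternatives were DESeq2 1.42.0, limma 3.58.1 (on log2 CPM with a prior count of 2, and on log2 of count plus 1 with no scaling for library size), RLE or library-size scaling, other filters, a stricter threshold, all samples in 1 fit, the replicate number as a block and leaving out each sample. Canonical transcript lengths for TPM were added after seeing the data.

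By rule, values of every sample were given for members called between media with an absolute log2 fold change of at least 0.5, for the 5 called members with the largest difference between cell types, and for members with a called interaction, of which there were 0. Of each further list, up to 3 called genes with the largest rise and up to 3 with the largest fall per comparison were named, and 1 gene that this rule selects is not reported here. The others described sample by sample were chosen after their values were seen. As for pairing, within a cell type the deviations of 16 of 16 same-numbered pairs of samples had a correlation over 0.1 (median 0.355). Only 4 of 32 pairs that differ in number did so (median -0.188). The pairing comes from these data and from the numbers in the labels, which name no batch.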

Additional observations from a re-analysis of the deposited data

Results flagged for a closer look

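No member, but 5 genes of the companion lists, responded differently to debris in the 2 cell types by edgeR's interaction test over all genes. Each value is the log2 response of cDC1s minus that of cDC2s. The rise of Slc7a11 with RIPK3 debris was larger in cDC1s by 0.89 (adjusted p = 0.00523). The response of Atf3 was higher in cDC1s by 0.85 with BimS debris (adjusted p = 0.000307), where its cDC2 mean was 25.8 CPM with WT and 21.2 CPM with BimS medium, and by 0.67 with RIPK3 debris (adjusted p = 0.00731), and the second was lost without cDC2 RIPK3 sample 1 (adjusted p = 0.11). Ddit4 differed by -0.72 with BimS debris (adjusted p = 0.0107), which was lost without cDC1 WT sample 1 or cDC1 BimS sample 3 (adjusted p up to 0.0735). Flcn differed by 0.54 with BimS debris (adjusted p = 0.015), lost without cDC1 WT sample 3, cDC1 BimS sample 1 or cDC2 BimS sample 2 (adjusted p up to 0.0914). Sfxn2 differed by 0.76 with BimS debris (adjusted p = 0.029), lost without any 1 of 8 samples (adjusted p up to 0.121).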

How the results depend on the processing

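No called difference of a member changed direction under any alternative. Of 64 calls over all comparisons, 60 were kept by DESeq2, 60 by limma on log2 CPM, 39 by limma on log2 of count plus 1, 64 with RLE size factors, 55 with library size alone, 61 with no filter on low counts and 52 at an adjusted p under 0.01. With all 17 samples in 1 fit, 24 of 34 calls between media were kept. Under every alternative, 27 of 30 calls between cell types were kept. Of the calls against WT, 2 of 11 with BimS and 4 of 9 with RIPK3 debris were so kept in cDC1s. In cDC2s 1 of 4 was kept with either debris, and for RIPK3 against BimS in cDC1s 0 of 6. The median of all genes in cDC2s against WT was -0.02 with TMM scaling for both kinds of debris and -0.11 and -0.12 with library size alone. With limma on log2 of count plus 1 it was -0.17 for RIPK3 debris there, and 0.16 between cell types against 0.01 with TMM scaling.

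For BimS against WT in cDC1s, the 11 called members became 4 by limma on log2 of count plus 1, 7 at an adjusted p under 0.01, and 7 to 10 without 1 sample, 7 without WT sample 1 or 3 or BimS sample 2 or 3. For RIPK3 against WT in cDC1s the 9 became 7 to 11 without 1 sample. For RIPK3 against BimS in cDC1s the 6 became 0 by limma on log2 of count plus 1, 1 with all 17 samples in 1 fit, and 4 to 6 without 1 sample.

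For BimS against WT in cDC2s the 4 became 8 with library size alone or with all 17 samples, 2 at an adjusted p under 0.01, and 1 to 5 without 1 sample, 1 without WT sample 2 and 2 without BimS sample 3. For RIPK3 against WT in cDC2s the 4 became 2 by limma on log2 of count plus 1 and 2 to 4 without 1 sample, 2 without RIPK3 sample 2, which leaves 1 sample assumed to vary like the others. For RIPK3 against BimS in cDC2s the 0 became 3 by DESeq2, 1 with RLE size factors, 4 with no filter, 3 with all 17 samples, and 0 to 3 without 1 sample, 3 without WT sample 3 and 2 without WT sample 1. The count between cell types was 28 to 30 without 1 sample. For the interactions, DESeq2 called 1 member for RIPK3 against WT, no filter gave 1 for BimS against WT, and leaving out 1 sample gave 0. The cause of these changes was not tested, and leaving out a sample also makes its group smaller.

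With the replicate number as a block the counts were 16 and 13 in cDC1s for RIPK3 against WT and against BimS, and in cDC2s 19 for BimS and 9 for RIPK3 against WT and 12 for RIPK3 against BimS, and all 64 calls were kept. Between cell types the numbers pair less clearly: 5 of 8 same-numbered pairs with the same medium correlated above 0.1 (median 0.139), and 14 of 16 with different media (median 0.22), against 2 of 16 and 3 of 32 pairs that differ in number. There the block called 2 members (Slc6a9 and Slc15a4) in the interaction for BimS against WT and 1 (Mthfd2) in that for RIPK3 against WT.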
